A study of Homo sapiens with 10 samples.

Results

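The FOS and JUN family, the 7 genes that encode the classical subunits of the transcription factor AP-1, was examined in keratinocytes that received a goji berry preparation, ionising radiation, or both. Members were the rows with the symbols FOS, FOSB, FOSL1, FOSL2, JUN, JUNB and JUND, 7 of the 22003 features measured, and all 7 passed the filter on low counts. The cells were HaCaT, a spontaneously immortalised line of human skin keratinocytes, wild type by their labels, so that all groups come from 1 line. LBP stands for the polysaccharide-glycoprotein of the plant Lycium barbarum. Cells were given LBP or vehicle for 24 h, and part of them was then exposed to 12 Gy of radiation and harvested 3 h later. For the non-irradiated cells no harvest time is given here. A difference in time or handling therefore cannot be told apart from the dose. The 4 groups were vehicle without irradiation (n = 2), LBP without irradiation (n = 2), vehicle with 12 Gy (n = 3) and LBP with 12 Gy (n = 3). The replicates are numbered repeats, and the labels do not state that each was its own culture. P-values therefore measure only how far these samples scatter, and that scatter may be technical.

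AP-1 is a dimer of proteins that carry a basic leucine zipper. JUN proteins can pair with each other or with a FOS protein, whereas FOS proteins need a JUN partner to bind DNA. FOS, FOSB, JUN and JUNB are immediate early genes, whose transcripts appear within minutes of growth factor or stress signals through the MAP kinases and are quickly degraded. FOSL1 and FOSL2 encode FRA1 and FRA2, which follow with a delay and stay longer, and JUND is made at a steady level in many resting cells. In keratinocytes AP-1 serves proliferation, wound migration and the genes of the cornified envelope.

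Among the FOS genes, FOS spans chr14:75278774-75282230 (+), FOSB spans chr19:45467995-45475179 (+), FOSL1 spans chr11:65892049-65900573 (-) and FOSL2 spans chr2:28392448-28417312 (+). Among the JUN genes, JUN spans chr1:58780788-58784327 (-), JUNB spans chr19:12791496-12793315 (+) and JUND spans chr19:18279760-18281622 (-). These positions, on GRCh38, are those of GENCODE v29, which lists each member as protein coding. JUN and JUNB have 1 annotated transcript of 1 exon each. FOSB lies inside the span of ERCC1 on the other strand with no shared exon, and JUNB shares 259 exonic bases with HOOK2 on the other strand. Whether counting used the strand is not given in the sources used here. HOOK2 stood between 26.2 and 33.0 CPM in all 10 libraries and ERCC1 between 50.5 and 60.6 CPM, where CPM is the read count relative to the size of the library, scaled with TMM factors.

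Promoter windows of 6 of the 7 members were found in RefSeq (GRCh38.p14, 250 bases before and 50 bases after the start of the gene). The starts are those of RefSeq and can differ from the GENCODE spans given above. By GENCODE all 250 bases before the JUN start are exon of JUN, and the FOSL2 window lies inside the FOSL2 span. The sequences of JUND and FOSB are shown because these genes passed the test in a comparison of 2 groups, and that of FOS because it is nearest to FOSB in level. Each is printed 5′ to 3′ on the strand of its gene, from 250 bases before the start up to the first annotated exon. Capitals mark TGACG, the core of the cAMP response element that AP-1 and CREB proteins can bind, or its reverse complement CGTCA.
JUND promoter, chr19:18281623-18281872, minus strand: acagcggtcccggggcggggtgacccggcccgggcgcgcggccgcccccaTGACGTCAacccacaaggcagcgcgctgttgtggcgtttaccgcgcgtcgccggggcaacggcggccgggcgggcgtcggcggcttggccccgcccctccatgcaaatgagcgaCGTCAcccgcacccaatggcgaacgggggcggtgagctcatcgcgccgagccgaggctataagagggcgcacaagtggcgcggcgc
FOSB promoter, chr19:45467746-45467994, plus strand: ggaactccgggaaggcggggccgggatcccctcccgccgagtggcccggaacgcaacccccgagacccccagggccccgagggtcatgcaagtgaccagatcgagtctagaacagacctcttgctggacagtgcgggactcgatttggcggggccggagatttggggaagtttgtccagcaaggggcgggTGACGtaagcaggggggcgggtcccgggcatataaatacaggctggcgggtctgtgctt
FOS promoter, chr14:75278578-75278773, plus strand: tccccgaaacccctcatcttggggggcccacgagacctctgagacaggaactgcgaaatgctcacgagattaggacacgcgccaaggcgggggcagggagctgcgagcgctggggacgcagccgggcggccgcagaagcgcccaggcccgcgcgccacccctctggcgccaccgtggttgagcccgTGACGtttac
The letters TGACG, searched on both strands, were found in all 6 windows, against 24.6% of 35116 promoter windows of the same 300 bases. The match began 64 bases before the start in FOS and 60 bases before it in FOSB. JUND held 3 matches, 2 of which lie within the full palindrome TGACGTCA that begins 200 bases before the start and that 1.85% of windows hold. JUN, with 1 match to TGACG, also had TGACATCA beginning 67 bases and TTACCTCA beginning 186 bases before the start, both on its own strand, which 2.61% and 0.715% of windows hold. The AP-1 site TGACTCA was present in FOSL2 only, among the 6, 5 bases after the start, against 4.95% of windows. The antioxidant response core TGACNNNGC had 2 matches in JUND, 1 of them overlapping a TGACG, and none in the other 5 windows, against 13.3% of windows. No window of the 6 held a CArG box, which 1.29% of windows hold. At so low a rate its absence from 6 windows says little, and bases further upstream were not searched. A match is a description of these letters and not evidence of binding.

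Library totals ran from 31830506 to 62986831 counts, and 14799 features were tested. Mitochondrially encoded genes took 1.85% to 3.28% of counts. All 12 keratinocyte markers were present, with KRT5 and KRT14 at means of 3158 and 3399 CPM. Their summed level was 12767 to 13298 CPM in vehicle, 15343 to 15410 in LBP, 12525 to 14005 in irradiated vehicle and 13889 to 15307 CPM in irradiated LBP libraries. The labels name mucosa as the tissue. All 6 markers of simple and mucosal epithelium had a mean of at least 1 CPM, with the simple keratins KRT8, KRT18 and KRT19 at 3338, 1500 and 1209 CPM and the mucosal keratins KRT13 and KRT4 at 78.4 and 3.14 CPM. The sum of these 6 was 6556 to 6871 CPM in vehicle, 5859 to 6809 in LBP, 5893 to 6718 in irradiated vehicle and 5133 to 5817 CPM in irradiated LBP libraries. Of the markers of cells other than epithelium, DCN, TYR, PECAM1 and TEK had 0 counts in every library, and 2 of 7 fibroblast, 0 of 5 melanocyte, 3 of 7 leukocyte and 1 of 5 endothelial markers had a mean of at least 1 CPM, led by CD68 at 14.0 CPM. A change in RNA per cell cannot be told apart from a change in the number of cells that express a gene.

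Libraries of a group stood apart for this family. In irradiated LBP replicate 2, the shallowest library, all 7 members were the lowest of the 3 libraries, as were 24 of 28 other immediate early genes, against 31.7% of all genes tested. Irradiated LBP replicate 3 had the highest level of 4 members and of 22 of those 28 genes, against 37.2% of all genes. LBP replicate 1 was above LBP replicate 2 for all 7 members and for 20 of the 28, against 48.8% of all genes, and vehicle replicate 2 was above vehicle replicate 1 for 6 members and 24 of the 28, against 49.7%. The part of this spread in the results was not tested, and values without the irradiated LBP libraries are given beside the results that rest on them.

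Levels of different genes are compared in FPKM, the authors' fragment counts relative to the length of the gene and the size of the library. FOSL1 was the most abundant member in all 10 libraries, with 119 to 292 FPKM and a median of 193, above 98.1% of the genes tested. JUNB followed with 37.7 to 128 FPKM (median 54.6) and JUN with 15.5 to 29.3 FPKM (median 21.7), and this order of FOSL1, JUNB and JUN held in every library. JUND ranged from 7.50 to 17.4 FPKM (median 15.1) and stood below JUN in all 10 libraries. FOSL2, at 8.94 to 18.2 FPKM (median 11.3), did not separate from JUND. JUND was below FOSL2 in both vehicle libraries, above it in both LBP and all 3 irradiated vehicle libraries, and above it in 1 of 3 irradiated LBP libraries. FOSB (0.378 to 4.39 FPKM, median 1.08) and FOS (0.673 to 4.41 FPKM, median 0.935) were the least abundant. FOS exceeded FOSB in both vehicle libraries, and FOSB exceeded FOS in both LBP libraries and in 2 of 3 libraries of each irradiated group.

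FOSL1 supplied 54.3% to 71.7% of the summed FPKM of the family. The sum was 216 ± 36 FPKM (SD, n = 2) in vehicle, 333 ± 20 (SD, n = 2) in LBP, 278 ± 20 (SD, n = 3) in irradiated vehicle and 389 ± 70 (SD, n = 3) in irradiated LBP cells. Vehicle had the lowest sums, and no library of another group reached down to them. The summed FOS genes exceeded the summed JUN genes 2.17 ± 0.055 times (SD, n = 2) in vehicle, 2.91 ± 0.14 times (SD, n = 2) in LBP, 1.93 ± 0.038 times (SD, n = 3) in irradiated vehicle and 2.20 ± 0.62 times (SD, n = 3) in irradiated LBP cells. In the last group the ratio ran from 1.53 to 2.76, which covers the range of vehicle and of irradiated vehicle. Among the JUN genes, JUND made up 12.2 ± 0.22% (SD, n = 2) in vehicle and 17.6 ± 1.5% (SD, n = 3) in irradiated vehicle, and these libraries did not overlap. JUNB made up 74.7% of the JUN genes in irradiated LBP replicate 3 and 53.1% in irradiated vehicle replicate 1, the ends of its range. These shares are descriptions without a test.

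**Figure D1:**
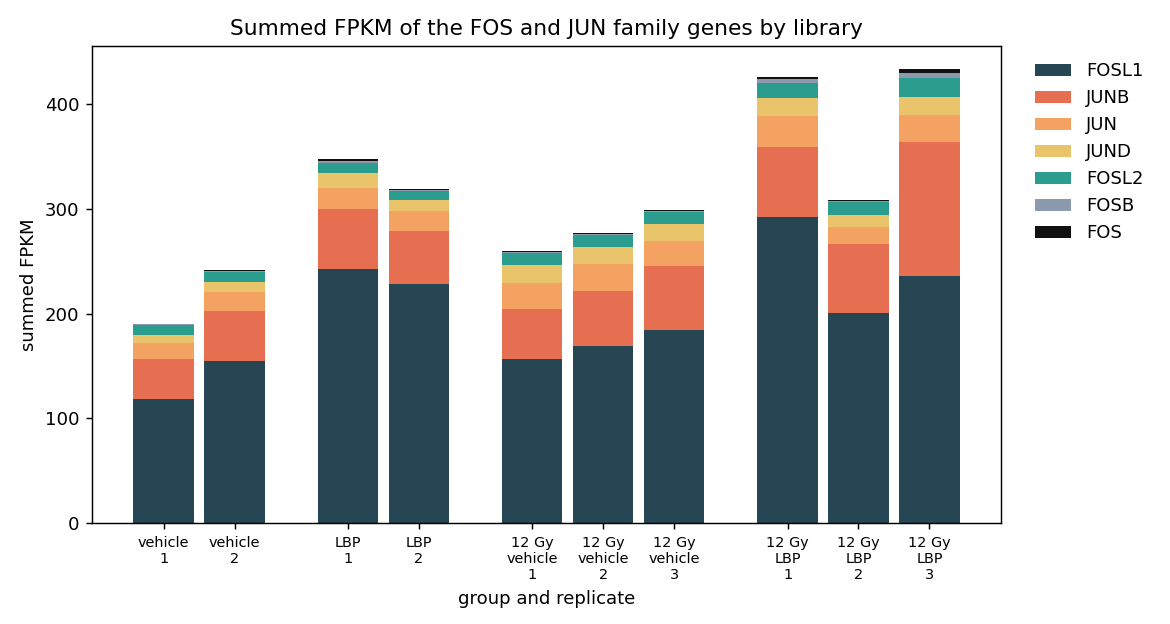
Summed FPKM of the 7 genes in each of the 10 libraries (y axis, linear from 0), with each gene as a coloured part of the bar and libraries ordered by group and replicate. FOSL1 is the largest part of every bar, the vehicle bars of 190 and 241 FPKM are the shortest, and FOS and FOSB are barely visible at the top.

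The 12 Gy difference without LBP was read from vehicle cells, irradiated (n = 3) against not irradiated (n = 2). JUND was the member that rose. It had 16.4 and 19.8 CPM in the vehicle libraries and 37.4, 36.1 and 36.4 CPM in the irradiated ones, so the groups lay far apart relative to their spread. The change was 1.01 ± 0.19 (log2 fold change ± standard error, SE), or 2.01-fold with a 95% interval of 1.51 to 2.68 (adjusted p = 0.0424 by edgeR's quasi-likelihood test). That is 1 of 7 members called higher, against 0.0338% of all features called higher in this comparison, and no member was called lower, against 0.405%. The call was lost in 9 of 19 alternative settings, with adjusted p from 8.8e-07 to 0.65, among them each that left out a vehicle or irradiated vehicle library, for instance 0.88 (adjusted p = 0.65) without vehicle replicate 1.

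JUN, the founding partner of the dimer, had 57.5 and 67.8 CPM in vehicle and 90.3, 97.0 and 86.7 CPM in irradiated vehicle cells. Its groups did not overlap, but the difference of 0.54 ± 0.20 did not pass over all genes (unadjusted p = 0.0166, adjusted p = 0.60 by edgeR). With only these 2 groups in the fit it passed (adjusted p = 0.015). FOSB had 1.61 and 2.05 CPM in vehicle and 2.97, 4.06 and 4.93 CPM in irradiated vehicle cells, also without overlap. The FOSB difference was 1.12 ± 0.42 (adjusted p = 0.61). FOSL2 likewise had groups that did not overlap, at 73.6 to 76.2 against 84.0 to 88.3 CPM, with a small difference of 0.20 ± 0.14 (adjusted p = 0.84). In all, 4 of 7 members had higher groups without overlap, where 13.8% of all features tested did. FOS, FOSL1 and JUNB overlapped between the groups, with differences of 0.17 ± 0.46, 0.31 ± 0.16 and 0.33 ± 0.25. The intervals of these 3 allow folds of up to 2.26, 1.58 and 1.83, and over left-out libraries FOSL1 ranged from 0.12 to 0.53 and JUNB from 0.17 to 0.52. All 7 members had values above 0, as did 50.6% of all features, with a family median of 0.33 beside 0.0019 for all features.

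**Figure D2:**
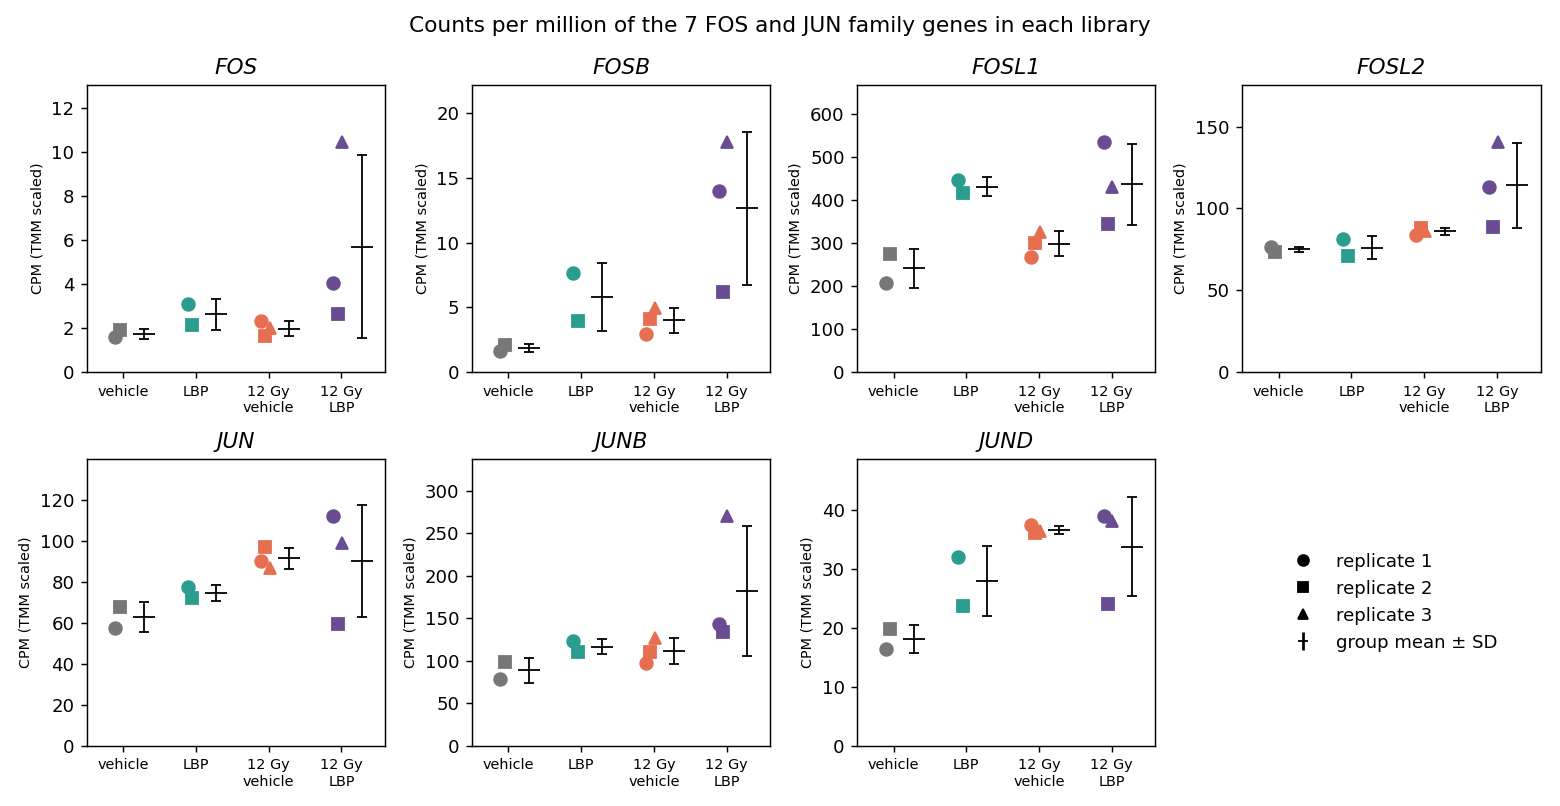
CPM of each gene (y axes linear from 0, each gene on its own scale) in the 10 libraries by group, with symbols for the replicate number and the group mean ± SD beside them. JUND lies between 36.1 and 37.4 CPM in the 3 irradiated vehicle libraries, above 16.4 and 19.8 in vehicle, and the square of the irradiated LBP group is its lowest point for all 7 genes.

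With LBP in non-irradiated cells, the comparison of LBP with vehicle (n = 2 against 2), none of the 7 members passed by edgeR, against 0.541% of all features called higher and 0.264% called lower. DESeq2 called 2, limma on FPKM called 0, and 3 had an unadjusted p under 0.05, against 13.5% of all features. FOSL1 came closest. It had 208 and 274 CPM in vehicle and 447 and 416 CPM in LBP libraries, a clear gap between the groups. The difference was 0.84 ± 0.18, or 1.79-fold with a 95% interval of 1.37 to 2.33 (adjusted p = 0.053). It passed in 5 of 19 alternative settings, DESeq2 among them (adjusted p = 0.018). FOSB had 1.61 and 2.05 CPM in vehicle and 7.66 and 3.96 CPM in LBP libraries. Its groups did not overlap, and the LBP libraries differed widely from each other. The FOSB difference of 1.65 ± 0.45 had an adjusted p of 0.13 and a 95% interval of 1.60-fold to 6.15-fold.

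JUND had 32.1 and 23.7 CPM in the LBP libraries, above both vehicle libraries. Its difference was 0.62 ± 0.20 (adjusted p = 0.21 by edgeR, 0.043 by DESeq2). FOS, at 3.11 and 2.13 CPM with LBP against 1.58 and 1.91 CPM, had a difference of 0.58 ± 0.50. JUN and JUNB, at 77.2 and 71.8 CPM and at 123 and 110 CPM with LBP, had 0.25 ± 0.21 and 0.39 ± 0.27. FOSL2 was the exception to the separation of groups, with 81.1 and 71.1 CPM around the vehicle values and a difference of 0.02 ± 0.15, whose sign turned in 5 of 19 alternative settings. Thus 6 of 7 members had higher groups without overlap, where 23.2% of all features did with 2 libraries on each side. All 7 values were above 0, as were 52.2% of those of all features, with medians of 0.58 and 0.0100.

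In irradiated cells, the comparison of LBP with vehicle (n = 3 against 3) asked how pretreatment altered the irradiated state. FOSB rose. Its levels were 2.97, 4.06 and 4.93 CPM in irradiated vehicle and 14.0, 6.19 and 17.8 CPM in irradiated LBP libraries. Every irradiated LBP library was above every irradiated vehicle library, though replicate 2 came close to them. The change was 1.66 ± 0.34, or 3.17-fold with a 95% interval of 1.89 to 5.32 (adjusted p = 0.0226 by edgeR's quasi-likelihood test). So 1 of 7 members was called higher, against 2.79% of all features, and none lower, against 1.57%. The call was lost in 7 of 19 alternative settings (adjusted p from 0.0018 to 0.13 over all of them). It was 1.34 (adjusted p = 0.064) without irradiated LBP replicate 3 and 1.99 (adjusted p = 0.0018) without irradiated LBP replicate 2. Without irradiated vehicle replicate 1, 2 or 3 it was 1.50, 1.67 and 1.85 (adjusted p = 0.091, 0.088 and 0.053).

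FOS and FOSL1 lay just outside the threshold in irradiated cells, and JUNB and FOSL2 lay further from it. FOS had 2.31, 1.65 and 1.98 CPM in irradiated vehicle and 4.06, 2.62 and 10.5 CPM in irradiated LBP libraries. The groups did not overlap, and replicate 3 was far above the other irradiated LBP libraries. The FOS difference was 1.54 ± 0.40 (adjusted p = 0.052), 0.76 (adjusted p = 0.13) without irradiated LBP replicate 3 and 1.87 (adjusted p = 0.011) without replicate 2. JUNB had 97.4, 111 and 127 CPM in irradiated vehicle and 143, 134 and 270 CPM in irradiated LBP libraries. Here too 1 library carried much of the difference, 0.71 ± 0.22 (adjusted p = 0.089), which was 0.31 (adjusted p = 0.19) without irradiated LBP replicate 3 and 0.89 (adjusted p = 0.035) without replicate 2.

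FOSL1 had 269, 302 and 327 CPM in irradiated vehicle and 535, 346 and 430 CPM in irradiated LBP libraries. The groups were separate, with a difference of 0.55 ± 0.14 (adjusted p = 0.052). Without irradiated LBP replicate 1, 2 or 3 it was 0.37, 0.69 and 0.56, and it passed without replicate 2 (adjusted p = 0.013). FOSL2 had 84.0, 88.3 and 86.1 CPM against 113, 88.9 and 140 CPM, with replicate 2 of irradiated LBP barely above irradiated vehicle. Its difference was 0.41 ± 0.13 (adjusted p = 0.089), 0.23 without irradiated LBP replicate 3 and 0.56 (adjusted p = 0.0085) without replicate 2. These 4 and FOSB made 5 of 7 members with higher groups without overlap, where 13.9% of all features did. With irradiated LBP replicate 2 left out, 5 members passed among 722 genes called. Without irradiated LBP replicate 1 it was 1 member among 393 genes, and without replicate 3 it was 0 among 420. Leaving out irradiated vehicle replicate 1, 2 or 3 gave 0 members each time, among 195, 176 and 223 genes.

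JUN and JUND did not follow the other 5 members in this comparison. JUN had 112, 59.4 and 98.9 CPM in irradiated LBP libraries, on both sides of the 86.7 to 97.0 CPM of irradiated vehicle. Its difference was -0.02 ± 0.17 (adjusted p = 0.97), with a 95% interval of 0.762-fold to 1.28-fold. JUND had 38.9, 24.1 and 38.2 CPM with LBP around the 36.1 to 37.4 CPM of irradiated vehicle. The JUND difference was -0.12 ± 0.16 (adjusted p = 0.72), with an interval of 0.722-fold to 1.18-fold. Without irradiated LBP replicate 2 these differences were 0.21 and 0.07, so the sign of both rests on that library, and JUN was also above 0 (0.02) without irradiated vehicle replicate 2. In all, 5 members had values above 0 and 2 below, against 51.1% of all features above 0, and the family median was 0.55 beside 0.0051.

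**Figure D3:**
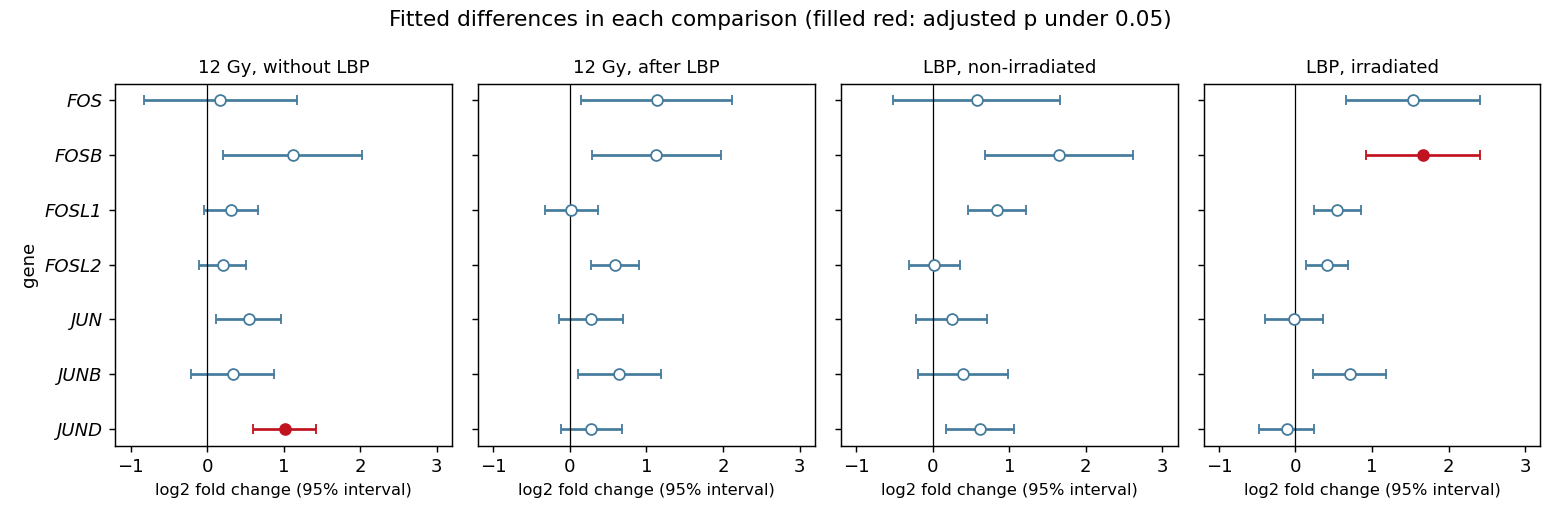
Fitted log2 fold change of each gene (x axis, with the 95% interval as a horizontal bar) in the 4 comparisons of 2 groups, filled red where the adjusted p was under 0.05. JUND after 12 Gy without LBP (1.01) and FOSB with LBP in irradiated cells (1.66) are the filled points, and JUN and JUND lie at -0.02 and -0.12 in the rightmost panel.

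Irradiation after LBP, the comparison of irradiated LBP with LBP cells (n = 3 against 2), gave no call among the 7 members by edgeR, against 0.0135% of all features called higher and 0.128% called lower. DESeq2 called 1 (FOSL2, adjusted p = 0.0026), limma on FPKM called 0, and 4 had an unadjusted p under 0.05, where 13.5% of all features did. FOSL2 had 81.1 and 71.1 CPM in LBP and 113, 88.9 and 140 CPM in irradiated LBP libraries. The groups were separate, with a difference of 0.59 ± 0.14 (adjusted p = 0.20) that was 0.74 (adjusted p = 0.015) without irradiated LBP replicate 2 and 0.41 (adjusted p = 0.28) without replicate 3. JUNB, at 123 and 110 CPM against 134 to 270 CPM, was also separate, with 0.64 ± 0.25 (adjusted p = 0.31) and 0.25 without replicate 3. FOSL2 and JUNB made 2 of 7 members with higher groups without overlap, where 14.0% of all features did.

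FOSB and FOS had larger but overlapping differences after LBP, 1.13 ± 0.39 (adjusted p = 0.28) and 1.13 ± 0.45 (adjusted p = 0.31). Without irradiated LBP replicate 3 they were 0.81 and 0.36. JUN and JUND had 0.28 ± 0.19 and 0.28 ± 0.18, and over left-out libraries they ranged from 0.094 to 0.50 and from 0.073 (without LBP replicate 2) to 0.52 (without LBP replicate 1). FOSL1, already high with LBP alone, stood at 0.02 ± 0.16, with a 95% interval of 0.795-fold to 1.29-fold and a sign that turned in 3 of 19 alternative settings. All 7 values were above 0, as were 50.4% of those of all features, and the family median was 0.59 beside 0.0021.

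Whether the LBP effect differed between irradiated and non-irradiated cells was tested by the interaction, in which the LBP difference of non-irradiated cells is subtracted from that of irradiated cells. No member passed by edgeR, DESeq2 or limma on FPKM, against 0.0135% of all features by edgeR, and 1 had an unadjusted p under 0.05, against 8.20% of all features. That member was JUND, with an interaction of -0.73 ± 0.26 (unadjusted p = 0.0156, adjusted p = 0.60) and a 95% interval of -1.30 to -0.17. The sign stayed negative in all 18 alternative settings. For JUND the interaction compares the 12 Gy difference of 1.01 without LBP with that of 0.28 after LBP, which was 0.073 without LBP replicate 2 and 0.52 without LBP replicate 1. FOSL2 (0.38 ± 0.20), FOS (0.96 ± 0.64), JUNB (0.31 ± 0.35), FOSL1 (-0.29 ± 0.23), JUN (-0.27 ± 0.27) and FOSB (0.01 ± 0.59) had intervals that include 0, and over left-out libraries FOS ranged from 0.19 to 1.30 and FOSB from -0.39 to 0.57.

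Averaging over both radiation states used all 10 libraries for LBP. FOSB and FOSL1 were the 2 of 7 members that rose with LBP, against 3.99% of all features called higher, and none fell, against 2.93%. FOSB changed by 1.66 ± 0.28, or 3.15-fold (adjusted p = 0.0059 by edgeR), a call kept in 17 of 18 alternative settings. FOSL1 changed by 0.69 ± 0.11, or 1.62-fold with a 95% interval of 1.36 to 1.92 (adjusted p = 0.0046), and passed in all 18. FOS and JUNB had 1.06 ± 0.32 (adjusted p = 0.070) and 0.55 ± 0.17 (adjusted p = 0.080), which were 0.67 (adjusted p = 0.056) and 0.35 (adjusted p = 0.038) without irradiated LBP replicate 3. JUND, FOSL2 and JUN had 0.25 ± 0.13, 0.21 ± 0.10 and 0.12 ± 0.14. Leaving out irradiated LBP replicate 2 gave 6 members called among 1141 genes, with JUN as the exception (0.23, adjusted p = 0.066). Without irradiated LBP replicate 1 it was 2 members among 742 genes, and without replicate 3 it was 3 among 1082. Leaving out irradiated vehicle replicate 1, 2 or 3 gave 2 members each time. Beside these values, 4 of 12 keratinocyte markers also rose with averaged LBP and none fell, and 3 rose and none fell with LBP in irradiated cells. Of 6 simple and mucosal markers, 5 had an unadjusted p under 0.05 with averaged LBP, none of them called, and 4 of the 6 were above 0. With LBP in irradiated cells 1 of these 6 rose and 1 fell, where 2.79% of all features rose and 1.57% fell. With 12 Gy after LBP 1 of the 6 rose and none fell, where 0.0135% of all features rose and 0.128% fell. The part of these markers in the results was not tested.

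Averaged over both pretreatments, 12 Gy gave no call among the members by edgeR, against 0.0878% of all features called higher and 0.473% lower. DESeq2 called 2, limma on FPKM called 0, and 5 had an unadjusted p under 0.05, against 11.5% of all features. JUND was nearest the threshold, with 0.64 ± 0.13, or 1.56-fold with an interval of 1.28 to 1.91 (adjusted p = 0.056). FOSB followed with 1.12 ± 0.28 (adjusted p = 0.16), FOSL2 with 0.39 ± 0.10 (adjusted p = 0.17), JUN with 0.41 ± 0.14 (adjusted p = 0.31) and JUNB with 0.49 ± 0.17 (adjusted p = 0.34). FOS had 0.65 ± 0.32 (adjusted p = 0.47), which was 0.27 without irradiated LBP replicate 3. FOSL1 had the value nearest 0, 0.16 ± 0.11, with an interval of 0.944-fold to 1.33-fold. Without irradiated LBP replicate 2, JUND (0.74, adjusted p = 0.0016), JUN (0.52, adjusted p = 0.0029), FOSL2 (0.47, adjusted p = 0.0070) and FOSB (1.28, adjusted p = 0.010) passed. In that fit 177 genes were called. Leaving out irradiated LBP replicate 1 or 3 gave 0 members among 90 and 94 genes. Leaving out irradiated vehicle replicate 1, 2 or 3 also gave 0 members.

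The members differed in how steady they were between libraries of a group. The fitted coefficient of variation, pooled over all groups, was 34.5% for FOS and 29.7% for FOSB, 18.7% for JUNB, 15.0% for JUN, 14.5% for JUND, 12.4% for FOSL1 and 11.2% for FOSL2, against a median of 9.85% over all genes tested. Within single groups, the coefficient of CPM was highest in irradiated LBP for each member. FOS had 73.0% there and at most 26.4% elsewhere, JUNB 41.8% and 16.6%, JUN 30.4% and 11.6%, and FOSL2 22.6% and 9.24%. FOSB (46.6% and 45.1%), JUND (24.8% and 21.2%) and FOSL1 (21.7% and 19.2%) differed less. From the lowest to the highest of the 10 libraries, FOSB spanned 11.1-fold and FOS 6.62-fold in CPM, while FOSL2 and JUN spanned 1.97-fold and 1.95-fold, against a median of 1.41-fold for all genes tested. These spans include the differences between groups. FOS rested on 60 to 461 counts per library and FOSB on 61 to 783, whereas FOSL1 had 7917 to 25446.

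The log2 CPM of the members were set against each other over the 10 libraries, which fall into 4 groups and so are not independent points. JUN and JUND were closest to each other, with a Pearson r of 0.91, and each had at most 0.69 with any other member. FOS, JUNB and FOSL2 had r of 0.88 to 0.93 with one another, and FOSB had 0.84 to 0.89 with these 3 and 0.87 with FOSL1. Among 11574 other genes at a mean of at least 1 log2 CPM, the profiles most like FOS included those of ITPKC (0.96) and EGR1 (0.95), another immediate early transcription factor. Those most like FOSB were MIDN (0.98), ASB1 (0.97) and the heparan sulphate proteoglycan gene SDC4 (0.97). FOSL1 was nearest to AL135905.2 (0.97), TUBE1 (0.97) and the cytokine gene CLCF1 (0.96). The profiles nearest to FOSL2 included those of NOTCH1 (0.98) and ASB7 (0.98). JUN was nearest to DENND5A (0.97), the Krüppel-like factor gene KLF6 (0.94) and SEMA7A (0.94). JUNB was nearest to NGFR (0.97), PMAIP1 (0.97) and ZNF133 (0.97), and JUND to the transcription factor gene SOX9 (0.94), STYX (0.93) and TMEM158 (0.91). These are the highest values among many genes, given as a description.

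**Figure D4:**
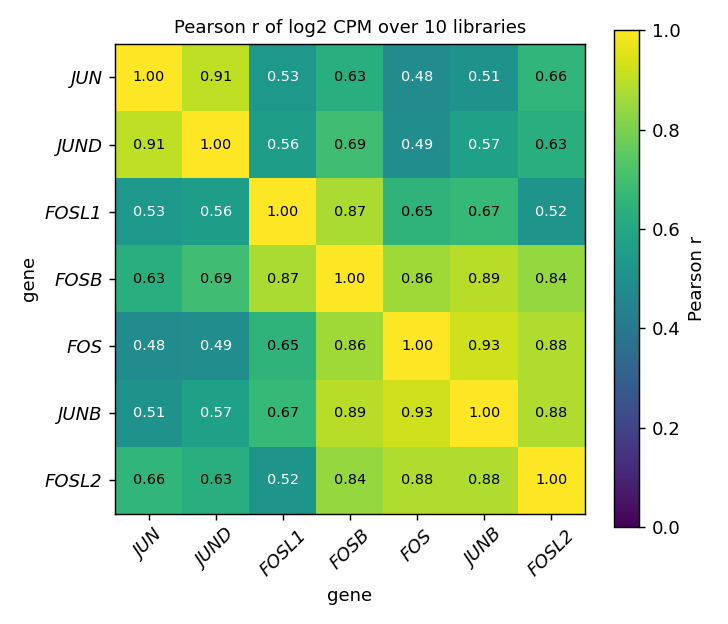
Pearson r between the log2 CPM of each pair of the 7 genes (both axes) over the 10 libraries, with the value in each cell and the colour scale from 0 to 1. JUN and JUND form a pair at 0.91 in one corner, and FOS, JUNB and FOSL2 a block of 0.88 to 0.93 in the other.

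Other genes of the AP-1 pathway were followed in 5 lists. Of 28 tested immediate early genes outside the family, 5 rose with LBP averaged over radiation states and none fell, where 3.99% of all features rose and 2.93% fell, with a list median of 0.32 beside 0.0072 for all features. EGR1 had 10.4 and 14.5 CPM in vehicle, 26.1 and 18.4 in LBP, 12.6, 12.2 and 13.8 in irradiated vehicle and 36.2, 16.7 and 59.7 CPM in irradiated LBP libraries. As for FOS, all LBP libraries were above all vehicle libraries of the same radiation state, and irradiated LBP replicate 2 was the lowest of its group. The averaged changes were 1.19 ± 0.26 for EGR1 (adjusted p = 0.022), 0.55 ± 0.14 for KLF10, 0.87 ± 0.22 for PPP1R15A, which restores translation after stress, and 1.20 ± 0.32 for EGR3. Calls were lost in 7, 10, 10 and 13 of 18 alternative settings for these 4. With 12 Gy averaged over pretreatments, KLF4, a Krüppel-like factor of epidermal differentiation, was the 1 of 28 that rose (0.57 ± 0.11, adjusted p = 0.031, lost in 11 of 18 settings), and all 28 had values above 0, against 50.3% of all features. With 12 Gy in vehicle cells alone none of the 28 passed by edgeR, DESeq2 or limma on FPKM, 6 had an unadjusted p under 0.05, against 6.91% of all features, and 26 were above 0, against 50.6%.

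Among 19 tested genes of other basic leucine zipper partners, such as the ATF, BATF, MAF and CNC proteins, 2 rose with averaged LBP and none fell, again where 3.99% of all features rose and 2.93% fell. These were MAFG, a small MAF protein (0.42 ± 0.09, adjusted p = 0.020), and NFE2L1, a CNC protein that pairs with small MAFs (0.25 ± 0.06, adjusted p = 0.023), with calls lost in 6 and 8 of 18 settings. The list median was 0.15. Of 29 upstream kinase and transcription factor genes, 2 rose and 1 fell with averaged LBP, shares near the 3.99% and 2.93% of all features, with a median of -0.06. EGFR, the receptor that feeds the ERK pathway, rose by 0.31 ± 0.07 and MAP2K6, a p38 kinase kinase, by 0.92 ± 0.22, while MAPK14, the p38α kinase, fell by 0.20 ± 0.05 on the log2 scale. These 3 lost their calls in 9, 9 and 11 of 18 settings. MAP2K6 was low, with means of 0.61 CPM in vehicle, 1.22 in LBP, 0.78 in irradiated vehicle and 1.41 CPM in irradiated LBP cells. With limma on log2(FPKM + 1) the MAP2K6 change was 0.053. None of the 29 passed with 12 Gy by edgeR, DESeq2 or limma on FPKM, averaged or in either pretreatment, and 2 had an unadjusted p under 0.05 in the average, against 11.5% of all features.

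Of 19 negative regulators of AP-1, none passed in any of the 7 comparisons by edgeR or by limma on FPKM. With averaged 12 Gy, 13 of 19 had an unadjusted p under 0.05, against 11.5% of all features, DESeq2 called 4 higher, and the list median was 0.34 beside 0.00094. DUSP1, a phosphatase that switches off p38 and JNK, had 0.55 ± 0.12 (adjusted p = 0.094). DUSP8, another phosphatase of JNK and p38, had 1.14 ± 0.24 after 12 Gy without LBP (adjusted p = 0.089) and -0.68 ± 0.21 with LBP in irradiated cells (adjusted p = 0.088). It went from 2.86 to 6.33 CPM in the first comparison and from 6.33 to 3.93 CPM in the second, which share the irradiated vehicle libraries.

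Of 35 tested genes known as AP-1 targets in keratinocytes, 7 rose and 1 fell with averaged LBP, where 3.99% of all features rose and 2.93% fell, with a median of 0.13. The activation keratin gene KRT16 rose by 0.92 ± 0.12 (adjusted p = 0.00075), a call that held in all 18 alternative settings. FLG, the filaggrin gene, and TGM1, the transglutaminase of the cornified envelope, rose by 0.85 ± 0.14 and 0.87 ± 0.14. The gene that fell was MMP9, at -0.60 ± 0.11 (adjusted p = 0.0088 by edgeR). With LBP in non-irradiated cells MMP9 had -0.68 ± 0.17 (adjusted p = 0.11 by edgeR). KRT16 also rose with LBP in non-irradiated cells, by 1.27 ± 0.18, a call lost in 3 of 19 settings, among them without vehicle replicate 1 (1.09, adjusted p = 0.11) and without LBP replicate 2 (1.26, adjusted p = 0.053). In irradiated cells the KRT16 difference with LBP was 0.56 ± 0.15, just outside the threshold (adjusted p = 0.052 by edgeR). The KRT16 interaction was -0.71 ± 0.23 (adjusted p = 0.57 by edgeR). With LBP in irradiated cells 5 of the 35 rose and none fell, where 2.79% of all features rose and 1.57% fell. Among them were FLG (1.06 ± 0.17), TGM1 (0.87 ± 0.18) and the growth factor gene EREG (1.36 ± 0.34), with calls lost in 1, 4 and 13 of 19 settings. None of the 35 passed with 12 Gy by edgeR or limma on FPKM, in either pretreatment or averaged. DESeq2 called 1 higher after LBP, ITGA5 (0.44, adjusted p = 0.013), and 1 in the average. By edgeR, 3 had an unadjusted p under 0.05 without LBP, against 6.91% of all features. After LBP 11 did, against 13.5%, and in the average 10 did, against 11.5%.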

How the data were processed

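RNA of 10 HaCaT libraries was sequenced by the submitters. Read counts per gene, whole numbers that are not normalised, were deposited by the authors in 1 table. FPKM values were deposited by the authors in the same kind of table and were used to compare levels between genes and in limma. Reads were aligned with HISAT2 to GRCh38, per the submitters' processing notes; for the counter, its strand setting and its annotation, the sources used here give no name. Columns were matched to samples by the group codes and numbers in the labels, and no per-sample column was left over (0).

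Of 22003 features, 14799 passed edgeR's filterByExpr (minimum count 10). Counts were scaled with TMM factors and fitted with edgeR's quasi-likelihood model (edgeR 4.0.16, R 4.3.3) with 1 mean per group over all 10 libraries, which left 6 residual degrees of freedom. The 7 comparisons were contrasts of these means. P-values were adjusted over all tested features by Benjamini and Hochberg, and a call is an adjusted p under 0.05. DESeq2 1.42.0 and limma 3.58.1 on log2(FPKM + 1) were alternatives, together with other scaling factors, no filter on low counts, a pseudocount of 0.1, only the compared groups in the fit, a replicate block and each library left out. The steps were tested on simulated data. Library totals (31830506 to 62986831 counts) limit precision for FOS and FOSB, whose lowest counts were 60 and 61, where counting error adds to the spread. Counting 3 counts as the floor of detection, the floor was at most 0.0925 CPM.

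The members and the lists were chosen with earlier results of these data known. The text names all 7 members, up to 4 genes of a list by smallest p in a comparison, and for each member the 3 genes with the highest Pearson r of log2 CPM (prior count 2) among genes with a mean of at least 1 log2 CPM. Some genes that this rule or the lists include are not reported here. Promoter letters were read from RefSeq windows and positions from GENCODE v29. No library pair of a group agreed within counting noise, with chi-square over degrees of freedom of 10.1 to 34.6.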

Additional observations from a re-analysis of the deposited data

How the results depend on the processing

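Each member was refitted under 18 or 19 alternative settings in each of 7 comparisons. Of 910 such values, 832 kept direction and side of the threshold, 43 kept direction and passed where they had not, 17 kept direction and no longer passed, and 18 turned sign. For none of these changes was the cause tested. With only 2 or 3 libraries a group, a left-out library leaves some groups with 1 library, which is assumed to vary like the others, and with low counts FOS and FOSB have the widest errors.

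For 12 Gy without LBP (1 member called of 65 genes), limma on log2(FPKM + 1), on log2(FPKM + 0.1) and without a filter called 0 members and 37, 41 and 21 genes, DESeq2 called 129 genes, and the fit of only the compared groups called 2 members and 109 genes. Leaving out 1 library gave 0 to 2 members and 25 to 75 genes. For 12 Gy after LBP (0 of 21), DESeq2 called 1 member and 184 genes, no filter 45 genes, limma 10, 11 and 7 genes in the same order and the compared groups alone 10 genes, with 0 to 1 member and 8 to 51 genes without 1 library. For LBP without irradiation (0 of 119), DESeq2 called 2 members and 374 genes, no filter 2 and 188, the compared groups alone 2 and 278, and limma 62, 69 and 45 genes, with 0 to 2 members and 38 to 175 genes without 1 library. For LBP in irradiated cells (1 of 645), DESeq2 called 4 members and 1228 genes, no filter 4 members, limma 0 members and 313, 304 and 169 genes, and the compared groups alone 409 genes, with 0 to 5 members and 176 to 722 genes without 1 library.

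For the interaction (0 of 2), DESeq2 called 16 genes, no filter 7 and limma on log2(FPKM + 0.1) 4, with 0 to 5 genes without 1 library. For averaged LBP (2 of 1025), no filter called 4 members, limma 566, 588 and 344 genes with 1 member without a filter, and leaving out 1 library gave 2 to 6 members and 309 to 1141 genes. For averaged 12 Gy (0 of 83), DESeq2 called 2 members and 211 genes, library sizes alone 1 member, no filter 2 members and limma without a filter 36 genes, with 0 to 4 members and 59 to 177 genes without 1 library. The upper end of the member counts came without irradiated LBP replicate 2 in these comparisons, apart from the interaction.

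FOSL2 with LBP in non-irradiated cells was -0.0099 with library sizes only, -0.040, -0.043 and -0.040 with limma on log2(FPKM + 1), on log2(FPKM + 0.1) and without a filter, and from -0.084 to 0.11 over left-out libraries. FOSL1 with 12 Gy after LBP ranged from -0.15 to 0.16 over left-out libraries, JUN and JUND with LBP in irradiated cells from -0.21 to 0.21 and from -0.23 to 0.074, and the interaction of FOSB and JUNB from -0.39 to 0.57 and from -0.083 to 0.49.

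Replicate numbers were not treated as pairs, because the labels do not state that libraries of equal number belong together. Of 13 same-numbered pairs of libraries 2 had a correlation of deviations over 0.1 and 8 a negative one (-0.16 to 0.11). In a group with n = 2 the deviations of the libraries from their mean mirror each other, so these values are not independent. Vehicle and LBP replicate 1, for instance, had -0.041, and so did vehicle and LBP replicate 2. The tally therefore cannot decide whether equal numbers go together. With the replicate block, 12 Gy without LBP called 0 members, LBP in irradiated cells 3, averaged LBP 4 and the interaction 1 gene, FOS with 12 Gy without LBP was -0.15 and FOSL1 with 12 Gy after LBP was -0.013.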
